A study of Arabidopsis thaliana with 15 samples.

Results

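The genes described here are 10 components of the ethylene signalling pathway of Arabidopsis thaliana, taken by locus from a list of names: the receptor genes ETR1 (AT1G66340), ERS1 (AT2G40940), ETR2 (AT3G23150), ERS2 (AT1G04310) and EIN4 (AT3G04580), the kinase gene CTR1 (AT5G03730), EIN2 (AT5G03280), the transcription factor genes EIN3 (AT3G20770) and EIL1 (AT2G27050), and ERF1 (AT3G23240). They are 10 of the 27444 nuclear protein-coding genes in the RefSeq gene table, in which all 10 loci were found. The list was chosen with earlier results of these data known. For each gene, every listed peak of H3K4me2, H3K4me3 and H3K36me3 that overlapped the gene body by at least 1 bp was taken.

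Ethylene is a gaseous plant hormone, and its receptors sit in the membrane of the endoplasmic reticulum. Without ethylene the receptors keep the kinase CTR1 active, and CTR1 phosphorylates EIN2 and holds the pathway off. When ethylene binds, CTR1 is switched off, a part of EIN2 is released, and the transcription factors EIN3 and EIL1 accumulate and switch on targets such as ERF1. In plants H3K4me3 lies near the starts of transcribed genes, H3K36me3 lies over their transcribed bodies, and H3K4me2 is found on transcribed genes and on many that are little transcribed.

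The libraries came from native chromatin, cut with micrococcal nuclease without crosslinking, of whole seedlings of the accession Col-0 at 8 days of age by the age labels. The source name of the bdrs input library gives a different age, and no file of that library was used. Each of H3K4me2, H3K4me3 and H3K36me3, with total H3 and the input chromatin, was profiled in wild type, in the fpa-7 single mutant and in a bdrs triple mutant whose alleles the labels do not give, with 1 library per assay and genotype and 15 in all. The values used are 3 deposited peak lists, each naming the pooled libraries of 1 mark with pooled H3 as the control. Which genotypes were pooled is not stated, so no value below belongs to 1 genotype, there is no replicate error, and the read depth is unknown. Whole seedlings mix cell types, so a mark on few cells and a weaker mark on all cells cannot be told apart. All coordinates are those of the peaks on TAIR10, counted from 1, and each fold is the authors' enrichment of the pooled mark over pooled H3, which ranks peaks only within its own list.

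The receptor and signalling genes carried nearly the full set of marks, with EIN3 and ERF1 each lacking a listed peak of 1 mark. A gene counted as carrying a mark when no less than 200 bp of its body lay under listed peaks. H3K4me3 was carried by 10 of the 10 genes, against 62.7% of all genes. H3K4me2 was carried by 9, with EIN3 the exception, against 75.0% of all genes. H3K36me3 was carried by 9, with ERF1 the exception, against 49.9% of all genes. All 3 marks were found together on 8 genes, among them all 5 receptor genes, against 46.6% of all genes. Longer genes meet the rule more often, and 9 of the 10 genes measure 2638 to 5977 bp. Among the 8304 genes of that length range, 89.6% carried H3K4me2, 81.1% H3K4me3 and 69.0% H3K36me3, and 66.3% carried all 3 marks. Against this range the count for H3K4me2 is near the background, and with so few genes the other counts are a description. When each list was limited to its strongest 50%, 4 of the 10 genes carried H3K4me2 and 1, CTR1, carried all 3 marks, near the shares of 40.7% and 9.08% of all genes at that setting.

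**Figure D1:**
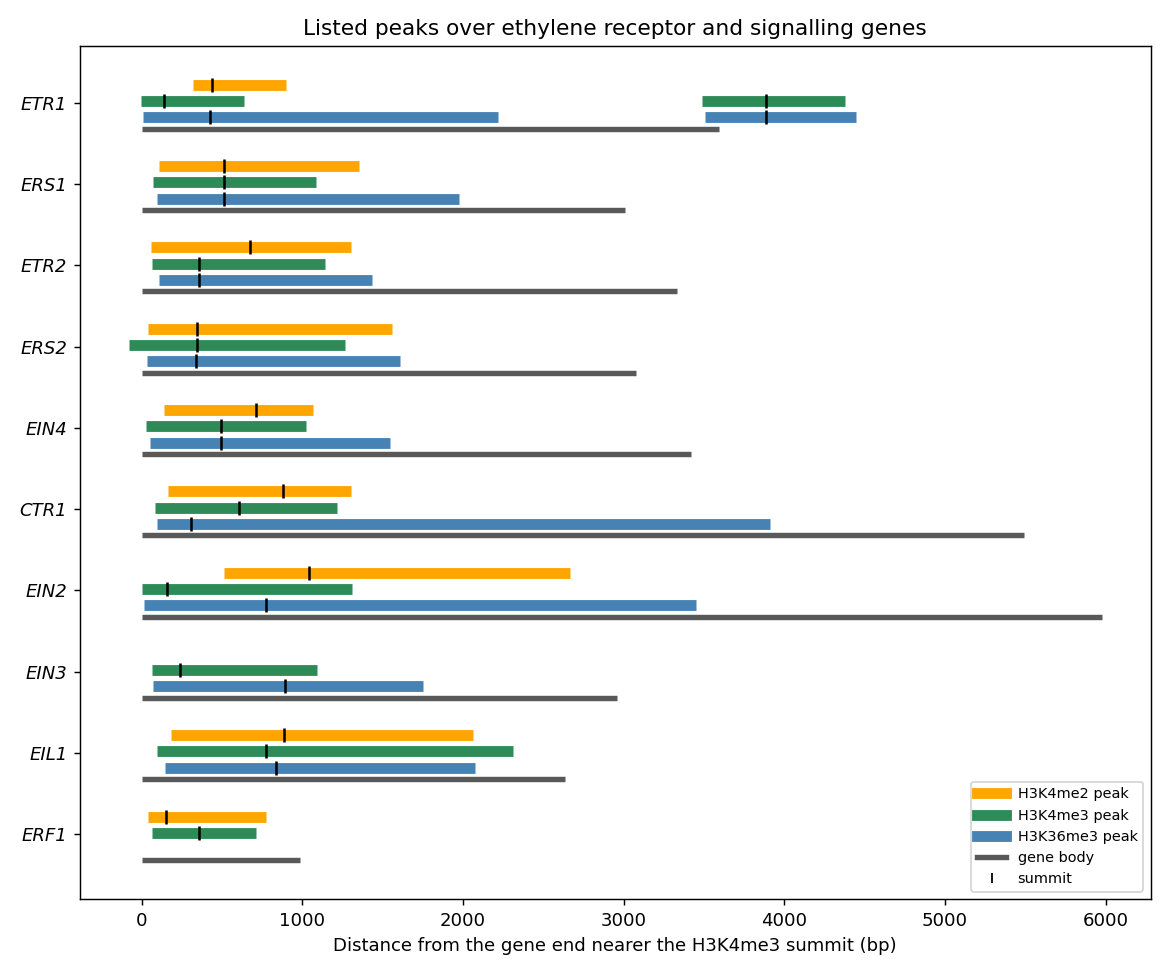
Listed peaks over the 10 genes, drawn by distance in bp from the gene end nearer the summit of the strongest H3K4me3 peak, with a black tick at each summit and the gene body as a grey bar. H3K36me3 reaches deeper into the gene than H3K4me3 in 8 of 9 genes, EIL1 being the exception; EIN3 has no H3K4me2 peak and ERF1 no H3K36me3 peak.

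In all, 30 peaks overlapped the 10 genes, and 28 of them had their summit inside the gene. The other 2, an H3K4me3 and an H3K36me3 peak, have their summits outside the far end of ETR1 and lie mostly on the neighbouring gene AT1G66345. Each of the 28 remaining peaks overlapped no other coding gene. Since the gene table gives no strand, positions are counted from the gene end nearer the H3K4me3 summit.

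The subfamily I receptors ETR1 and ERS1 shared high H3K4me3 and H3K36me3 and weak H3K4me2. These receptors have a complete histidine kinase domain, and ETR1 was the first ethylene receptor identified. The H3K4me3 peak of ETR1 lay on chromosome 1 at chr1:24734159-24734800 (TAIR10) with a fold of 10.4, and its −log10 p was 452. That fold stood at the 80.3rd percentile of its list, meaning that 80.3% of the listed H3K4me3 peaks had a fold as low or lower. Its H3K36me3 peak at chr1:24734167-24736380 had a fold of 6.52, at percentile 76.2. The H3K4me2 peak of ETR1, at chr1:24734480-24735057, was 578 bp wide with a fold of 2.35, at percentile 15.5, and was the narrowest peak on any of the 10 genes. ETR1 thus ranked high in both trimethyl lists and low in the H3K4me2 list.

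On ERS1 the H3K4me3 peak at chr2:17086242-17087255 had a fold of 10.4, at percentile 80.7. This was the highest H3K4me3 fold among the 10 genes, at 10.43 against 10.39 for ETR1, a gap for which no error can be given. The H3K36me3 peak of ERS1 at chr2:17085350-17087230 had a fold of 6.68, at percentile 80.2, and was also the highest of its kind on these genes. Its H3K4me2 peak at chr2:17085972-17087221 had a fold of 2.60, at percentile 24.0. Both subfamily I genes therefore paired the highest H3K4me3 folds of the set with H3K4me2 below percentile 25 of its list, while in H3K36me3 CTR1, at 6.58, stood between ERS1 and ETR1. They differed in extent, since H3K4me2 covered 16.1% of ETR1 and 41.6% of ERS1, while H3K36me3 covered 64.1% and 62.6%.

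The 2 further peaks at the far end of ETR1 overlapped it by 107 bp for H3K4me3 (chr1:24737650-24738538, fold 8.50) and 89 bp for H3K36me3 (chr1:24737668-24738611, fold 4.88). Their summits fell at the same base, inside AT1G66345, so they are not counted as peaks of ETR1 in the comparisons of position. Their overlaps are included in the covered shares of ETR1. For H3K36me3, 2303 bp of ETR1 were covered, of which 2214 bp lay under the peak with its summit in ETR1.

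The subfamily II receptors ETR2, ERS2 and EIN4, which lack parts of the histidine kinase domain, were less alike. ETR2 had the strongest H3K4me2 of the set, at chr3:8254618-8255860 at fold 7.09 (percentile 95.7), and its −log10 p was 152. Its H3K4me3 peak at chr3:8254625-8255702 had a fold of 9.79, at percentile 69.1. Its H3K36me3 peak at chr3:8254665-8255991 had a fold of 4.91, at percentile 28.9, the lowest among the receptors. ETR2 thus had the reverse order of ETR1 and ERS1, with H3K4me2 high and H3K36me3 low in their lists.

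ERS2 took a like position. Its H3K4me2 peak at chr1:1156258-1157773 had a fold of 4.92, at percentile 81.6, and its H3K4me3 peak at chr1:1156546-1157895 a fold of 9.09, at percentile 55.0. The H3K36me3 peak at chr1:1156204-1157781 had a fold of 5.42, at percentile 42.6. The H3K4me3 peak reached past the gene end, with 1268 of its 1350 bp on the gene, and was the widest H3K4me3 peak on a receptor gene. ETR2, ERS1 and ERS2 are known as the receptor genes whose transcripts ethylene raises.

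EIN4 instead resembled the subfamily I genes in H3K4me2. Its H3K4me2 peak at chr3:1237566-1238494 had a fold of 2.61, at percentile 24.6, next to that of ERS1 at 24.0. The H3K4me3 peak at chr3:1237605-1238605 had a fold of 9.33, at percentile 59.6, and the H3K36me3 peak at chr3:1237085-1238580 a fold of 5.88, at percentile 57.0. In H3K36me3 the receptors ran from ETR2 through ERS2, EIN4 and ETR1 to ERS1, and in H3K4me2 from ETR1 through ERS1, EIN4 and ERS2 to ETR2. The lists hold 1 value per peak, so whether neighbours in these orders differ beyond error cannot be told.

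CTR1, which encodes the Raf-like kinase that represses the pathway, carried one of the wider H3K36me3 domains. That peak, at chr5:975938-979757, was 3820 bp wide, at width percentile 94.2, with a fold of 6.58 at percentile 77.7, and it covered 69.6% of the gene. H3K4me3 at chr5:978636-979766 had a fold of 9.49, at percentile 62.8, and covered 20.6%. H3K4me2 at chr5:978546-979683 had a fold of 3.85, at percentile 63.0. CTR1 was the one gene of the 10 with all 3 folds above the median of their lists, which was 3.37 for H3K4me2, 8.84 for H3K4me3 and 5.68 for H3K36me3.

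EIN2, whose membrane protein carries the signal from CTR1 towards the nucleus, is the longest of the genes at 5977 bp. Its H3K36me3 peak at chr5:787440-790880 was 3441 bp wide with a fold of 5.92, at percentile 57.8, and ended 57.8% of the way along the gene. H3K4me3 at chr5:787429-788735 had a fold of 9.05, at percentile 54.3. H3K4me2 at chr5:787939-790092 was wide, at 2154 bp, and weak, with a fold of 2.45 at percentile 19.1. Its near edge lay 510 bp deeper in the gene than that of H3K4me3 and its far edge 1357 bp deeper, the largest shift of either kind among the 9 genes with both marks.

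EIN3 and EIL1, paralogous transcription factor genes at the end of the signalling chain, differed in their listed H3K4me2 and H3K36me3 peaks and in the extent of H3K4me3. No error can be given for these differences. EIN3 had no listed H3K4me2 peak, and the nearest ones lay 1.28 kb and 4.20 kb beyond its ends. The peak numbers show that 2 called H3K4me2 peaks between these neighbours had been left out of the list, and where they lay is not known, so the mark may be weak there and not absent. The H3K4me3 peak of EIN3 at chr3:7262294-7263321 had a fold of 8.44, at percentile 43.2. Its H3K36me3 peak at chr3:7261633-7263316 had a fold of 3.90, at percentile 11.2, the lowest among the 9 genes with the mark, although its −log10 p of 142 stood at percentile 25.5. H3K4me3 with H3K36me3 and without H3K4me2 was a state of 2.65% of all genes and 2.12% of the genes as long as the 9 longer ones.

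On EIL1 the 3 peaks nearly coincided and filled most of the gene. H3K4me3 at chr2:11545749-11547970 was 2222 bp wide, at width percentile 98.6, and covered 84.2% of the gene, the highest share of the 10 genes. Its fold of 8.53 stood at percentile 44.6, close to that of EIN3, while its −log10 p of 430 stood at percentile 72.2. H3K36me3 at chr2:11545799-11547730 had a fold of 5.37, at percentile 41.0, and covered 73.2%. H3K4me2 at chr2:11545837-11547718 covered 71.3% but with a fold of 2.01, at percentile 3.06, it was the weakest H3K4me2 peak of the set. With the strongest 50% of each list, or with equal numbers of peaks per list, neither EIL1 nor EIN3 carried H3K4me2. The 2 paralogs therefore had close H3K4me3 folds and unlike H3K4me3 extents, of 34.8% and 84.2% of the gene.

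ERF1, a target of EIN3 that encodes a transcription factor of the AP2/ERF family, had strong H3K4me2, weak H3K4me3 and no listed H3K36me3. Its H3K4me2 peak at chr3:8295653-8296388 had a fold of 6.36, at percentile 92.8, and covered 74.5% of the gene. The H3K4me3 peak at chr3:8295683-8296327 had a fold of 4.69, at percentile 12.6, against 8.44 to 10.4 on the 9 other genes. The nearest listed H3K36me3 peaks lay 10.6 kb and 15.2 kb away and carry consecutive numbers, so no called peak between them was left out of the list. ERF1 is the shortest of the genes at 988 bp. Among the 2932 genes within 20% of its length, 18.7% carried H3K36me3 and 16.9% had its state of H3K4me2 with H3K4me3, against 12.9% of all genes.

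**Figure D2:**
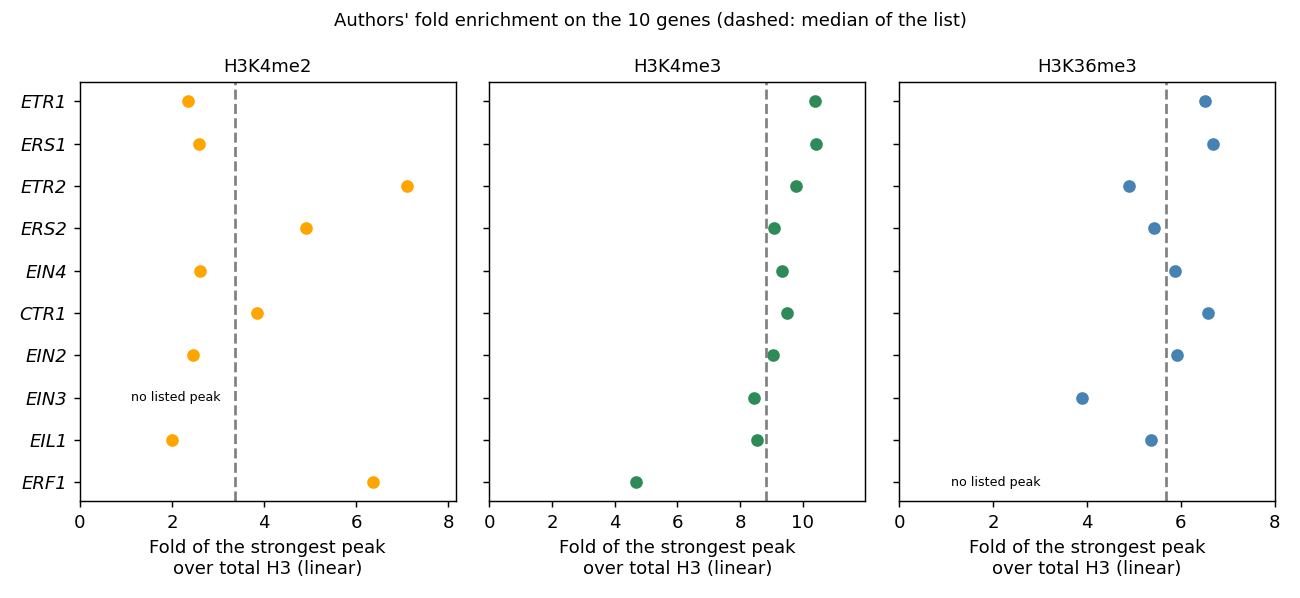
Authors' fold enrichment over total H3 (linear axis) of the strongest listed peak of each mark on each gene, with the median of all listed peaks of that mark as a dashed line. H3K4me3 folds lie between 8.44 and 10.4 on all genes but ERF1 (4.69), while H3K4me2 folds run from 2.01 on EIL1 to 7.09 on ETR2.

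Across the set, ranks of H3K4me2 spread widest, from percentile 3.06 to 95.7, against 12.6 to 80.7 for H3K4me3 and 11.2 to 80.2 for H3K36me3. The median fold of H3K4me3 over the 10 genes was 9.21, against 9.01 over all genes carrying the mark, and that of H3K36me3 over 9 genes was 5.88, against 5.72. For H3K4me2 the median over 9 genes was 2.61, against 3.52 over all genes carrying it. The median percentile of these folds was 24.6, against 54.4 over all genes carrying the mark. No median was taken over genes of like length or with the same marks, so whether this gap is particular to the ethylene genes was not tested. ETR1, ERS1, EIN4, EIN2 and EIL1 stood below percentile 25, and CTR1, ERS2, ERF1 and ETR2 stood at percentiles 63.0 to 95.7. The share of all genes below percentile 25 was not counted. In the 8 genes with all 3 marks, the folds of H3K4me2 and H3K36me3 had a Spearman rho of -0.24, against -0.32 over the 12778 genes with all 3 marks. The folds of H3K4me3 and H3K36me3 had a rho of 0.52 in the 8 genes and 0.72 over all. Those of H3K4me2 and H3K4me3 had a rho of 0.24 in the 8 genes and, with the other sign, -0.21 over all. These points share the same pooled libraries and the same pooled H3 control, and with 8 genes the coefficients are descriptions.

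The marks lay in a similar order along most of the genes. The H3K4me3 summit was 138 to 774 bp from the nearer gene end, with a median of 355 bp, against 302 bp over all genes. In the 9 genes with both marks, the H3K36me3 peak began 5 to 114 bp deeper in the gene than the H3K4me3 peak. The share of all genes with that order of near edges was not counted. In 8 of 9 genes the H3K36me3 peak ended deeper too, by 289 bp in ETR2 to 2698 bp in CTR1. In EIL1 the H3K36me3 peak stopped short of the end of H3K4me3 (a difference of -240 bp). Its far edge was deeper in 84.0% of all genes carrying both with both summits inside, the genes also used for the shares that follow, with a median of 720 bp. The far edge of H3K4me2 was also deeper than that of H3K4me3 in 8 of 9 genes, against 86.1% of all genes carrying both, and EIL1 was again the exception. The near edge of H3K4me2 was deeper in 7 of the 9 genes, against 75.5%.

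The H3K4me3 and H3K36me3 summits nearly coincided on 4 receptor genes. They fell at the same base on ERS1 and 1 bp apart on ETR2 and EIN4, and 3 bp apart on ERS2. On ERS1 and ERS2 the H3K4me2 summit lay within 1 bp of the H3K4me3 summit too, or 2 of 9 genes within 5 bp, against 9.43% of all genes carrying both. On ETR1 the summits of the trimethyl marks were 285 bp apart, and on CTR1, EIN2, EIN3 and EIL1 they were 63 to 653 bp apart. Such coincidence was common, as the summits lay within 5 bp in 39.0% of all genes carrying both marks, so 4 of 9 is near the background. The lists name the same pooled H3 control, and its part in the position of the summits was not tested.

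H3K4me2 covered a median of 37.3% of the 9 gene bodies that carried it, against 47.3% over all genes with the mark. The medians were 33.1% against 36.5% for H3K4me3 and 57.6% against 65.9% for H3K36me3. The 10 genes have a median length of 3202 bp against 2078 bp over all genes. EIL1 and ERF1 stood apart, with H3K4me2 and H3K4me3 over 65.3% to 84.2% of the gene, against 16.1% to 49.3% on the other genes that carried these marks.

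The genes whose profile was most like that of 3 of these genes were found by the distance over 6 values. These were the percentile of the strongest fold and the covered share for each mark. Only genes with a symbol other than their locus name were ranked, so a gene without a symbol may lie nearer. Nearest to ETR1 were HSI2, EMB2369 and UBP9, at distances of 9.67, 10.6 and 11.0 points. Nearest to EIN3 were GATA10, D6PKL2 and RLP54, at 12.0 to 16.6 points. Nearest to ERF1 were AGP4, EDF3 and GDU1, at 3.07, 3.50 and 4.77 points. EDF3, a transcription factor gene that ethylene induces, shared with ERF1 a strong H3K4me2 peak (fold 6.16, percentile 91.7), a weak H3K4me3 peak (fold 5.25, percentile 15.8) and no listed H3K36me3 peak.

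**Figure D3:**
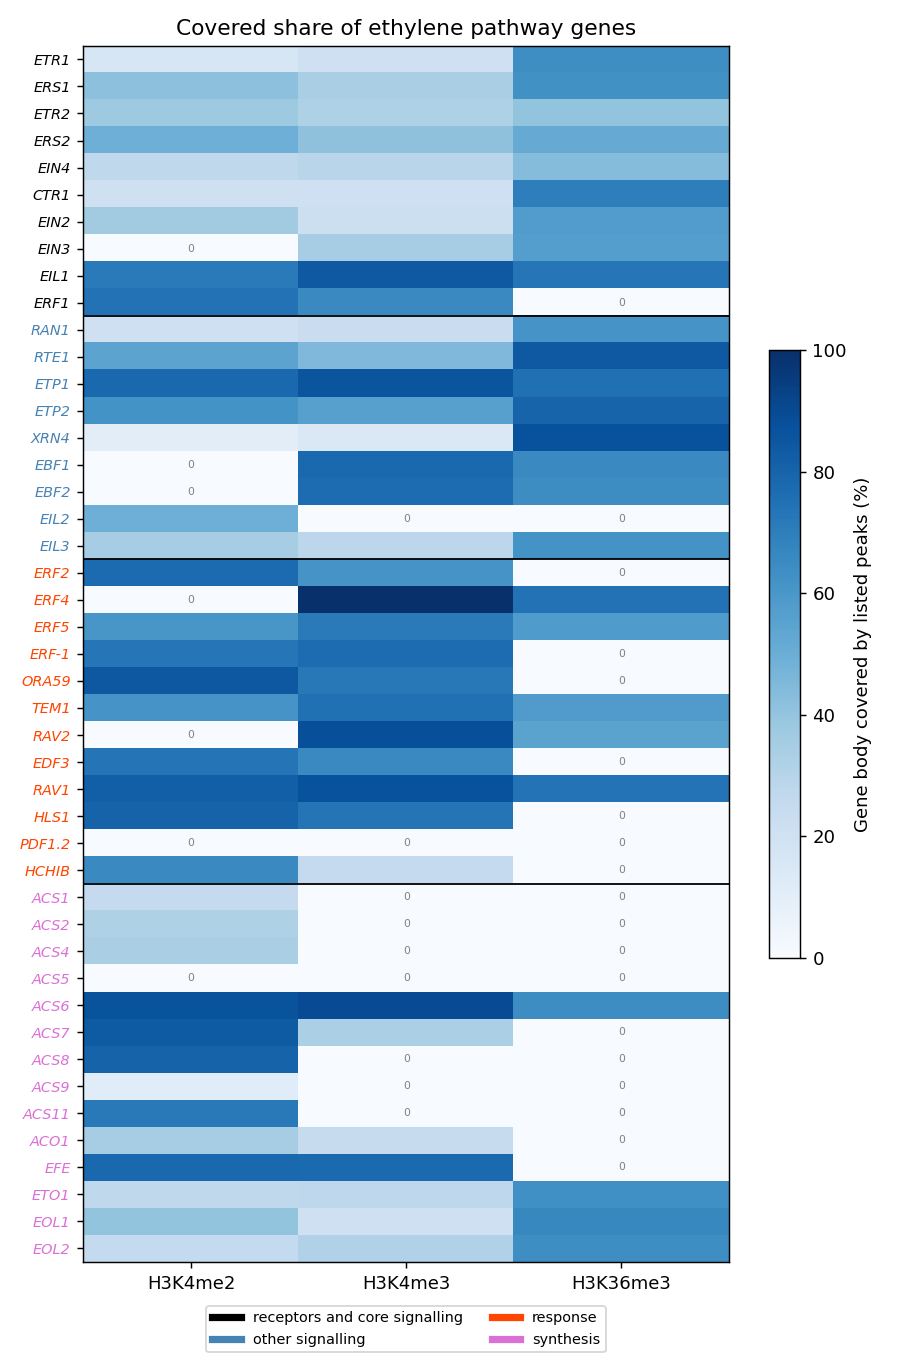
Share of the gene body (%) covered by listed peaks of each mark on 45 ethylene pathway genes, by list from top to bottom, with 0 printed where no listed peak overlaps the gene. The core signalling genes carry H3K4me3 and, ERF1 apart, H3K36me3, while 7 of the 9 ACS genes carry neither trimethyl mark, against 36.6% of all genes.

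The lists of other signalling, response and synthesis genes were written with earlier results of these data known, so their counts are descriptions. Of 9 other genes of signal transduction, 7 carried H3K4me2, 8 H3K4me3 and 8 H3K36me3, against 75.0%, 62.7% and 49.9% of all genes, so the H3K4me2 count is near the background. All 3 marks were found on 6 of them, against 46.6% of all genes. The exceptions were EBF1, EBF2 and EIL2. EBF1 and EBF2 encode the F-box proteins that target EIN3 and EIL1 for degradation, and like EIN3 they carried both trimethyl marks and no listed H3K4me2 peak. On EBF1 the H3K4me3 fold of 13.1 stood at percentile 99.5 and the H3K36me3 fold of 9.78 at percentile 99.9, higher than on any of the 10 genes, and on EBF2 the folds were 8.55 and 6.11. Between the listed H3K4me2 peaks around EBF1 and EBF2, 3 and 4 called peaks had been left out. EIL2, a relative of EIN3, carried H3K4me2 alone, at a fold of 5.68 and percentile 88.9, and so differed from both EIN3 and EIL1.

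Among 12 ethylene response genes, the state of ERF1 was found on 6, against 12.9% of all genes. Among genes within 20% of the length of ERF1 the share was 16.9%. Of the 12 genes, 9 carried H3K4me2, 11 H3K4me3 and 5 H3K36me3, against 75.0%, 62.7% and 49.9% of all genes. ERF2, ERF-1 (the ERF1A locus AT4G17500), ORA59 and EDF3 were among the 6 with H3K4me2 and H3K4me3 but no listed H3K36me3. Between the listed H3K36me3 peaks around them, 1, 2, 1 and 4 called peaks had been left out, so the mark may be weak there and not absent. The nearest listed H3K36me3 peaks lay 0.414 kb from ERF2 and 0.031 kb from EDF3. With genes widened by 500 bp, 7 of the 12 response genes carried H3K36me3, against 54.9% of all genes. The folds of ORA59 were 7.01 for H3K4me2 and 4.70 for H3K4me3, beside 6.36 and 4.69 on ERF1. Those of ERF2 were 6.08 and 6.63. ERF-1 went the other way, with 2.82 for H3K4me2 (percentile 31.9) and 9.33 for H3K4me3 (percentile 59.6), so genes of this state did not all share the folds of ERF1. ERF5, TEM1 and RAV1 carried all 3 marks, with H3K36me3 folds of 3.22, 4.07 and 5.67. ERF4 and RAV2 carried both trimethyl marks without a listed H3K4me2 peak, and PDF1.2, a defensin gene with near copies in the genome, carried none. These genes have a median length of 1404.5 bp against 3202 bp for the 10 genes, a difference whose part in these counts was not tested.

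Among genes of ethylene synthesis, the 9 ACS genes encode the enzymes of the committed step. Of these, 7 carried H3K4me2, which is near the background of 75.0%, 2 carried H3K4me3 and 1 carried H3K36me3, against 62.7% and 49.9% of all genes. The other 7 carried neither trimethyl mark, as did 36.6% of all genes. ACS1, ACS2, ACS4 and ACS8 were among the 5 with H3K4me2 alone, at folds of 2.26, 2.51, 4.57 and 2.15. ACS6 carried all 3 marks, at folds of 3.82, 6.72 and 3.76, and ACS7 carried H3K4me2 with a weak H3K4me3 peak of fold 3.20. ACS5 had no listed peak, and ACS9 had 196 bp of H3K4me2, just under the limit of 200 bp. ACO1 and EFE, genes of ACC oxidase, the last enzyme of synthesis, carried H3K4me2 and H3K4me3 without listed H3K36me3, with H3K4me3 folds of 7.20 and 9.75. Between the listed H3K36me3 peaks around ACO1 and EFE, 3 and 5 called peaks had been left out. ETO1 and its relatives EOL1 and EOL2, which promote the breakdown of ACS proteins, all carried all 3 marks, with H3K36me3 folds of 4.52, 5.25 and 6.48. All 3 marks were on 46.6% of all genes. In the range of 2638 to 5977 bp, which holds the lengths of these genes, the share was 66.3%.

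**Figure D4:**
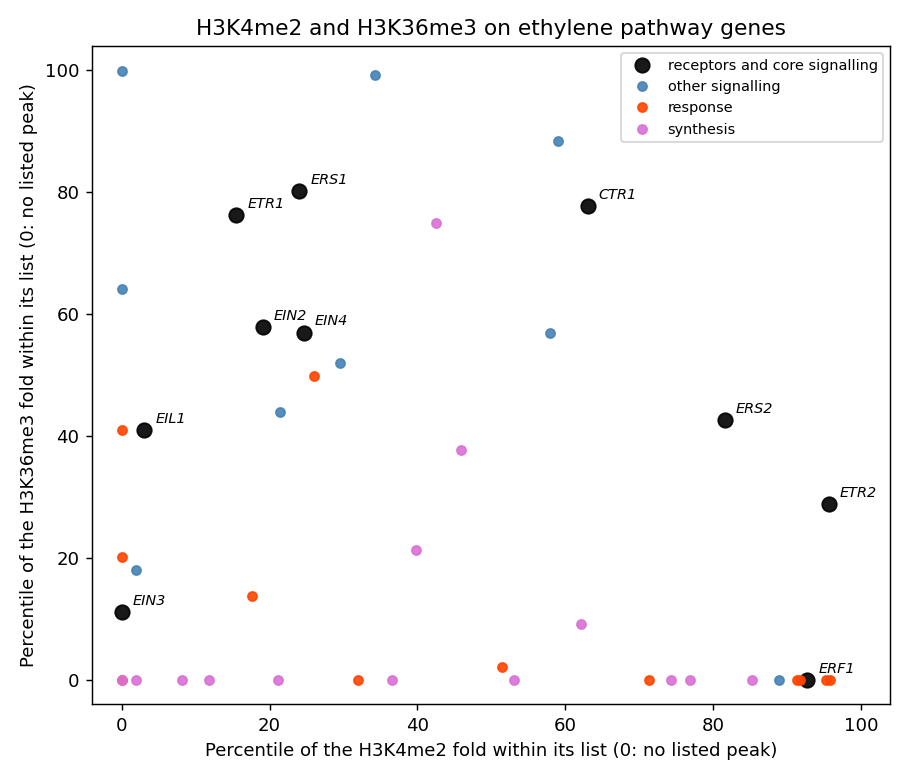
Percentile of the strongest H3K4me2 fold against that of the strongest H3K36me3 fold, each within its own list, for 45 ethylene pathway genes, with 0 for a gene without a listed peak. ETR1 and ERS1 lie low in H3K4me2 (15.5 and 24.0) and high in H3K36me3 (76.2 and 80.2), ETR2 the other way round (95.7 and 28.9), and ERF1 lies at 92.8 and 0.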

How the data were processed

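Native ChIP-seq peak lists of H3K4me2, H3K4me3 and H3K36me3 were used. The submitters' processing notes name TAIR10, MACS2, SAMtools 1.3, Bowtie2 2.2.6, Trimmomatic 0.33, Picard 2.2.4 and R 3.3.2, without roles or settings. Going by the deposited peak names, pooled libraries of each mark were called against pooled H3. The deposited fold is the caller's ratio and the deposited −log10 p and −log10 q are the caller's, while the deposited score restates the −log10 p. Peak numbers run with gaps, and each gap shows that a called peak was left out: 62.8%, 76.3% and 62.8% of the numbers for H3K4me2, H3K4me3 and H3K36me3 are listed. The sources used here do not give the rule of selection.

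Peaks were set on genes of the RefSeq table for TAIR10.1 (pandas 2.3.3, numpy 2.4.6, scipy 1.17.1), which gives no strand and whose coordinates are not printed. The share of peak sequence in genes was 93.5%, 96.2% and 98.3% with no offset and lower at each offset tried, from 100 to 1000 bp to either side, so smaller shifts would not be seen. A mark was carried with 200 bp under peaks, or 50% of a gene under 400 bp. The overlap step was tested on simulated data. The members and the lists of 9, 12 and 14 other pathway genes were chosen with earlier results of these data known. Named were all members and the genes outside a list's majority state or up to 4 of each state. The 3 genes with a symbol nearest to each of ETR1, EIN3 and ERF1 were also named. The values of 1 further synthesis gene are not reported here. Single pooled lists allow no test. The alternatives were other coverage rules, a summit in the gene, stronger peaks, equal numbers of peaks and wider gene bodies.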

Additional observations from a re-analysis of the deposited data

How the results depend on the processing

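Counting 1 bp of cover, requiring a summit in the gene or widening the gene by 500 bp left all 30 combinations of 10 genes and 3 marks as they were. When 50% of the gene had to be covered, 2 of the 10 genes carried H3K4me2, 2 carried H3K4me3 and 1 carried all 3 marks (34.3%, 19.0% and 8.54% of all genes); of the other signalling genes 3 and 4, and of the synthesis genes 5 and 2, carried H3K4me2 and H3K4me3. With the strongest 50% of each list, 4 of the 10 genes carried H3K4me2 (40.7% of all genes) and 1 all 3 marks (9.08%), and the median covered share was 0% for H3K4me2, 25.6% for H3K4me3 and 50.6% for H3K36me3, against 36.7%, 33.1% and 57.3% with all peaks. In that set 40.7%, 33.2% and 25.7% of all genes carried H3K4me2, H3K4me3 and H3K36me3. H3K4me3 was on 8 and H3K36me3 on 6 of the 10 genes. Of the 9 other signalling genes, 3 carried H3K4me2 and 5 H3K4me3. Of the 12 response genes, 6 carried H3K4me3 and 0 H3K36me3. Of the 14 synthesis genes, 4, 2 and 1 carried H3K4me2, H3K4me3 and H3K36me3. With 13491 peaks from each list, H3K4me2 was on 4 of the 10 genes (47.0% of all genes) and all 3 marks on 3 (26.8%). The median covered share was then 0% for H3K4me2 and 30.8% for H3K4me3. H3K4me2 was on 3 other signalling and 7 synthesis genes, and H3K4me3 was on 7 response genes (49.7% of all genes). Fewer peaks lower counts by construction. Taking the peak that covers most of a gene could move no median fold, since on each of the 10 genes it is also the strongest peak. No paired analysis was possible because each list pools its libraries. Depth is unknown.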
